A study of Mus musculus with 16 samples.

Results

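Mallory-Denk bodies are inclusions that form in the cytoplasm of stressed hepatocytes, and the genes described here encode 6 of the proteins tied to them: the keratins Krt8, Krt18 and Krt23, the adaptor p62 (gene Sqstm1), the small heat shock protein Hspb1 and the transglutaminase Tgm2. The 6 genes were chosen by name, with earlier results of these data known. All 6 were among the 48158 genes of the table, and all 6 were among the 11790 genes that reached 1 FPKM (fragments scaled to transcript length and library size) in at least 2 libraries. Of their 16 annotated transcripts, 10 passed the same filter.

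Hepatocytes were isolated, with the translation blocker cycloheximide, from FVB mice kept for 4 weeks on a diet with DDC (diethoxycarbonyl-dihydrocollidine, a compound that blocks heme synthesis) or on chow. Polyadenylated RNA was sequenced from the cytoplasm and from 3 sucrose gradient fractions of each diet: monosomes (1 ribosome), light polysomes (2 to 4 ribosomes) and heavy polysomes (more than 5 ribosomes). Each of the 8 groups held 2 libraries, 16 in all. The labels gave no age, and no transgene or deletion was named for either diet. The fraction libraries were labelled B and C for DDC, and with 2 joined names each for chow (CH1_CH2 or CH3_CH4). The cytoplasm libraries were labelled DDC_C2 and DDC_D2 for DDC and CH1 and CH3 for chow. Thus only in chow did the cytoplasm share a name with the fractions. Separate animals per library were not stated, so p-values measure the spread between these libraries.

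In hepatocytes the only abundant keratins are keratin 8, a type II keratin, and keratin 18, its type I partner, which assemble as obligate pairs into filaments that carry the cell's mechanical load. DDC feeding of mice is a standard way to induce Mallory-Denk bodies, whose core is misfolded and cross-linked keratin with ubiquitin and p62, and mouse work places an excess of keratin 8 over keratin 18 among the conditions that favor them. p62 binds ubiquitinated protein and links it to the autophagy machinery, tissue transglutaminase cross-links keratin 8, and Hspb1, named HSP25 in mouse, is a chaperone that binds keratin filaments.

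Summed FPKM was 375145 to 1386166 per library and 8313 to 9874 genes reached 1 FPKM. The 4 chow libraries of preparation 1 stood apart in sex-linked genes: they had 0.0394 to 2.44 FPKM of Xist and 0 FPKM summed over Ddx3y, Eif2s3y, Kdm5d and Uty, whereas the other libraries had 0 FPKM of Xist and 5.53 to 44.9 FPKM of the 4 Y-linked genes. Markers of some other liver cells differed between the diets. Of the endothelial and neutrophil markers, 0 of 9 and 0 of 4 tested were called in cytoplasm (median differences 0.43 and 1.41). On heavy polysomes 4 and 2 of them were called higher, against 13.9 percent of all genes tested. In cytoplasm, 12 macrophage markers summed to 686 and 1088 FPKM in DDC and to 101 and 136 FPKM in chow, with 10 of 12 called higher against 12.7 percent of all genes tested, and 9 of 11 tested stellate and fibroblast markers were called higher. The 12 hepatocyte markers summed to 19950 and 33670 FPKM in DDC cytoplasm and to 35250 and 42460 FPKM in chow cytoplasm, with 3 of 12 called lower. On monosomes the sums were also lower in DDC, at 35760 and 39960 FPKM in DDC and 52640 and 54970 FPKM in chow. They were higher in DDC on light polysomes (36500 and 44210 FPKM in DDC, 17380 and 18070 FPKM in chow) and on heavy polysomes (50430 and 96390 FPKM in DDC, 39990 and 43850 FPKM in chow), where some abundant markers were listed at 0 in whole groups, such as Ttr and Apoa2 on chow light polysomes. In both of these pools 4 of the markers tested were called lower and 0 higher, of 9 tested on light and 10 on heavy polysomes. On monosomes 4 of 11 were called lower and 2 higher (F2 and Fgb), against 16 and 21 percent of all genes tested. The all-gene shares called lower were 9.67 percent in cytoplasm, 13.5 percent on light polysomes and 10.9 percent on heavy polysomes. In bulk RNA, fewer cells of a type and less RNA per cell cannot be told apart.

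Krt8 and Krt18 were higher in DDC than in chow in every RNA pool, and their values did not overlap between the diets in any of the 4 pools. In cytoplasm, Krt8 had 1161 and 830.1 FPKM in DDC and 50.5 and 56.8 FPKM in chow. On monosomes it had 682.5 and 835.2 FPKM in DDC and 34.3 and 42.1 FPKM in chow. Every DDC library thus held several times the Krt8 of any chow library of the same pool. On light polysomes Krt8 had 606.5 and 1358 FPKM in DDC and 32.0 and 50.3 FPKM in chow. On heavy polysomes it had 1608 and 3239 FPKM in DDC and 157.8 and 198.8 FPKM in chow. These were the highest deposited FPKM of the gene in either diet, without scaling to equal totals. The difference was 4.17 ± 0.41 in cytoplasm (log2(FPKM + 1), DDC minus chow, SE), an 18-fold change with a 95% interval of 9.71 to 33.4 (limma, adjusted p = 4.5e-05). It was 4.28 on monosomes, 4.46 on light polysomes and 3.68 on heavy polysomes (limma, adjusted p = 3.07e-05, 2.43e-05 and 6.99e-05).

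Krt18 had 1484 and 790.1 FPKM in DDC cytoplasm and 103.1 and 74.9 FPKM in chow cytoplasm. On monosomes it had 1269 and 1548 FPKM in DDC and 100.4 and 126.6 FPKM in chow. In DDC, the monosome libraries lay closer to each other than those of the other pools. On light polysomes Krt18 had 527.2 and 1593 FPKM in DDC and 65.9 and 53.6 FPKM in chow. Its heavy polysome values were 771.0 and 2471 FPKM in DDC and 385.6 and 231.2 FPKM in chow, where the lower DDC library was only about 2.0 times the higher chow library. The difference was 3.61 ± 0.57 in cytoplasm, 12.2-fold with an interval of 5.12 to 29.1 (limma, adjusted p = 0.00117), 3.62 on monosomes and 3.93 on light polysomes (limma, adjusted p = 0.00061 and 0.00045). On heavy polysomes it was 2.21 ± 0.57, 4.61-fold with an interval of 1.94 to 11.0 (limma, adjusted p = 0.0148). That call ended without the second DDC heavy library (1.37, adjusted p = 0.143 by limma), without the second chow heavy library (1.84, adjusted p = 0.101) and with chow preparation 1 left out (2.57, adjusted p = 0.094), whereas the Krt8 calls in all 4 pools and the Krt18 calls in the other 3 held in each of these fits.

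Markers of bile duct cells, which also carry keratins 8 and 18, moved with the keratins, and their part in the result was not tested. The 12 cholangiocyte markers summed to 338 and 453 FPKM in DDC cytoplasm and to 42.1 and 47.3 FPKM in chow cytoplasm. Most of it was Tm4sf4 (285.2 and 222.1 FPKM in DDC, 40.4 and 35.9 FPKM in chow). Spp1 had 103.8 and 67.2 FPKM in DDC cytoplasm and 0.475 and 0.675 FPKM in chow cytoplasm. Prom1 had 50.2 and 37.5 FPKM in DDC cytoplasm and 1.33 and 0.0283 FPKM in chow cytoplasm. Of the 7 tested, 5 were called higher and 0 lower, against 12.7 and 9.67 percent of all genes tested. Krt19 and Krt7, the keratins that define duct cells, were at or below 1.25 and 0.318 FPKM in every library, each highest in a DDC library. Both were listed at 0 in every chow fraction library. Epcam was at most 1.6 FPKM in DDC and at 0 in every chow library. Of 12 other epithelial keratins, only Krt10 passed the filter. Krt10 had 1.25 and 0.906 FPKM in DDC cytoplasm and 1.68 and 1.36 FPKM in chow cytoplasm, and was not called in any pool. A processed pseudogene, Krt8-ps, shares 32.2 percent of the 31-base words of the Krt8 transcript and was listed at no more than 4.46 FPKM, in the same DDC heavy library where Krt8 had 3239 FPKM.

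**Figure D1:**
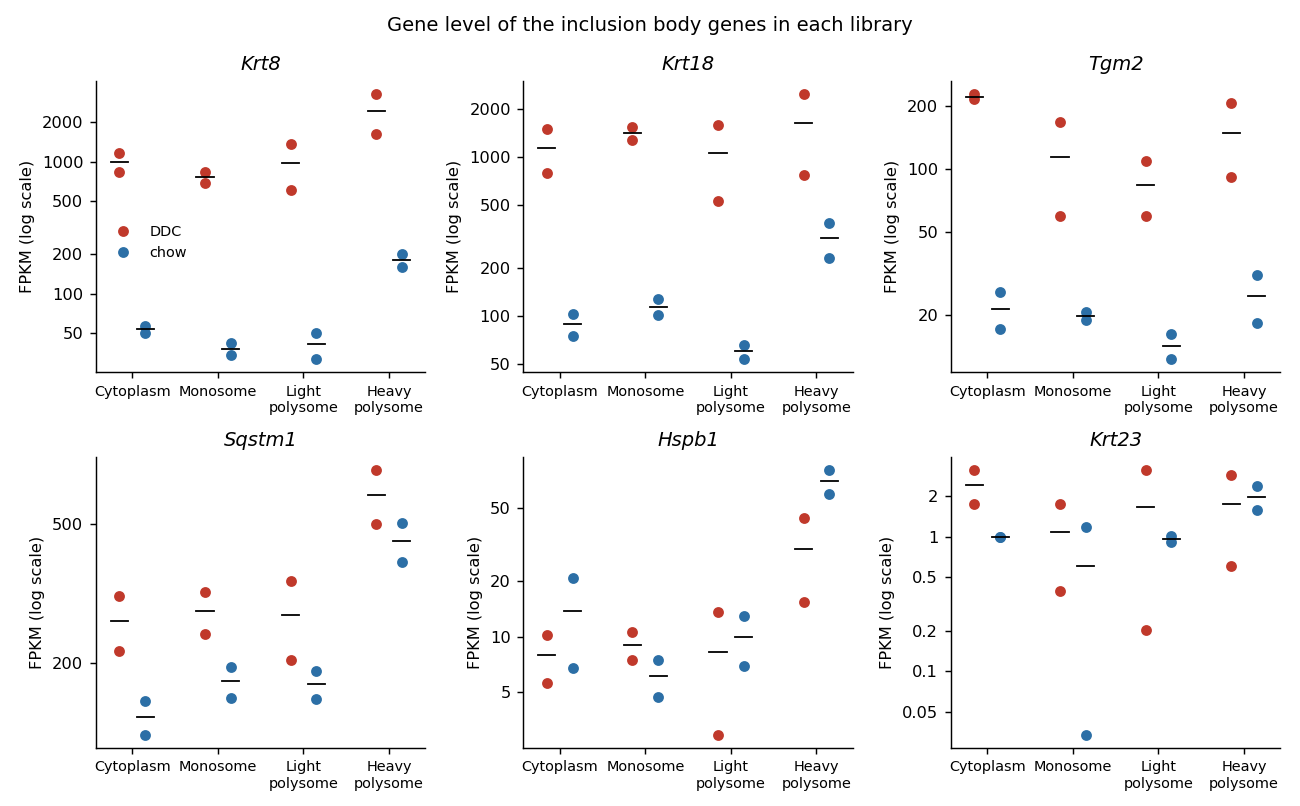
FPKM of the 6 genes in each library (log axis) by RNA pool, DDC in red left of chow in blue, with a bar at the mean of the 2 libraries. Krt8, Krt18 and Tgm2 separate the diets in every pool, whereas Hspb1 and Krt23 overlap between the diets in most pools.

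Krt8 and Krt18 lie side by side on chromosome 15 and run in opposite directions, away from each other. On GRCm38, Krt8 spans 101996698 to 102004482 on the minus strand and Krt18 spans 102028180 to 102032027 on the plus strand, with 23.7 kb and 0 annotated genes between them. Each has 1 annotated transcript, of 1958 bases in 9 exons for Krt8 (490 codons) and of 1437 bases in 7 exons for Krt18 (423 codons). The sequences just upstream of both starts are shown because the genes moved together and share the stretch between them. They are from RefSeq (GRCm38.p6), read toward the gene, and end where either annotation starts the transcript. The first is chr15:102004483-102004592 on the minus strand, the second chr15:102027966-102028179 on the plus strand.

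Krt8 upstream: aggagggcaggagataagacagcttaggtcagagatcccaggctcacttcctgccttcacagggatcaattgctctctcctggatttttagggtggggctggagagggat
Krt18 upstream: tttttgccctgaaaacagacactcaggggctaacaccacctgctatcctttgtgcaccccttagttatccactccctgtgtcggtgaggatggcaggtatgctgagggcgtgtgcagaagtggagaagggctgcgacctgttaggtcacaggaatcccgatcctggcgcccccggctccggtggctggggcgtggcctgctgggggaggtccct

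Matches to 5 motifs were searched on both strands of the 250 bases before each RefSeq start, without overlap between the motifs found: TATAAA (the TATA box), GGGCGG (the GC box), GAANNTTC (a heat shock element), TGANTCA (the AP-1 site) and the TGACNNNGC core of the antioxidant response element. None of these letters occurred in either window. Among all 32851 windows of this length, 12.4, 32.7, 6.69, 6.75 and 10.2 percent held the motif, in the same order. Of the 250 bases searched, 110 are shown for Krt8 and 214 for Krt18, and the rest lie within the gene spans given above. Bases further upstream were not searched.

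The balance of Krt8 to Krt18, the ratio of their FPKM in a library, was higher in DDC than in chow in 3 of the 4 pools without overlap, and an exact permutation test of 2 libraries against 2 could not reach significance. In cytoplasm the ratio was 0.782 and 1.05 in DDC and 0.49 and 0.758 in chow. On monosomes it was 0.538 and 0.539 in DDC and 0.342 and 0.332 in chow, the tightest pairs of all. On light polysomes it was 1.15 and 0.852 in DDC and 0.486 and 0.939 in chow, and the diets overlapped. On heavy polysomes it was 2.08 and 1.31 in DDC and 0.409 and 0.86 in chow, so that Krt8 exceeded Krt18 in both DDC libraries and fell short of it in both chow libraries. The mean ratio on heavy polysomes was 1.7 ± 0.547 in DDC and 0.634 ± 0.318 in chow (SD, n = 2 each).

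On the log2 scale the balance differed between DDC and chow by 0.57 in cytoplasm, 0.68 on monosomes, 0.55 on light polysomes and 1.48 on heavy polysomes, which are 1.49-, 1.6-, 1.47- and 2.79-fold. Two-sided exact permutation p-values were 0.333 in cytoplasm, on monosomes and on heavy polysomes and 0.667 on light polysomes, and 0.333 is the smallest that 2 libraries against 2 can give. Averaged over the 3 gradient fractions of each preparation, the difference was 0.9, or 1.87-fold (exact permutation p = 0.333). Without the 4 chow libraries of preparation 1 the differences were 0.26, 0.70, 0.08 and 0.94 in the same order, so the cytoplasm, light and heavy values moved by over 1.5 times. Leaving out single libraries gave 0.26 to 0.89 in cytoplasm, 0.66 to 0.70 on monosomes, 0.08 to 1.03 on light polysomes and 0.94 to 2.01 on heavy polysomes, each still above 0.

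The balance also differed between fractions of the same preparation, a comparison added after the values had been seen. From heavy polysomes to monosomes it differed by 1.96 and 1.28 (log2, heavy minus monosome) in the 2 DDC preparations and by 0.26 and 1.37 in the 2 chow preparations, a mean of 1.22 ± 0.704 (SD, n = 4). From light polysomes to monosomes it differed by 0.941 ± 0.448 (SD, n = 4). Both differences were above 0 in 4 of 4 preparations, and the two-sided exact sign-flip p of 0.125 is the smallest that 4 preparations can give. Among the gradient fractions, monosomes held the lowest Krt8 share of the pair in all 4 preparations.

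**Figure D2:**
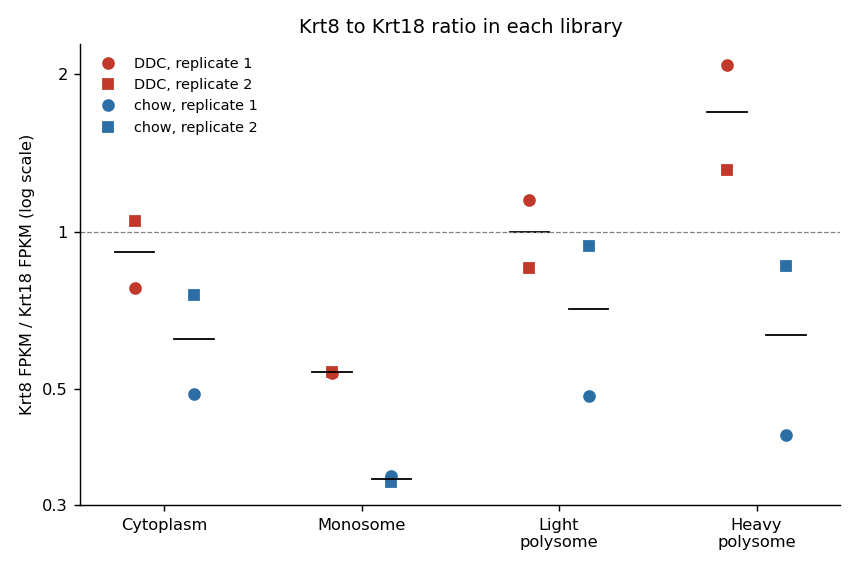
Ratio of Krt8 to Krt18 FPKM (log axis) in each library by RNA pool, DDC in red left of chow in blue, circles for replicate 1 and squares for replicate 2, bars at the means; the dashed line marks equal levels. Ratios run from 0.332 on chow monosomes to 2.08 on DDC heavy polysomes.

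Tgm2, which encodes tissue transglutaminase, was the third gene that rose with DDC in every pool. It had 228.2 and 215.7 FPKM in DDC cytoplasm and 25.8 and 17.1 FPKM in chow cytoplasm. On monosomes it had 59.6 and 169.0 FPKM in DDC and 20.7 and 18.9 FPKM in chow, and on light polysomes 59.4 and 109.0 FPKM in DDC and 16.2 and 12.4 FPKM in chow. Heavy polysomes held 91.5 and 208.0 FPKM in DDC and 31.2 and 18.3 FPKM in chow. The diets did not overlap in any pool, and the second DDC library was the higher in each gradient fraction. The difference was 3.34 ± 0.50 in cytoplasm (10.1-fold, interval 4.74 to 21.6; limma, adjusted p = 0.000817), 2.29 on monosomes, 2.43 on light polysomes and 2.48 on heavy polysomes (limma, adjusted p = 0.00415, 0.00369 and 0.00368). With chow preparation 1 left out, the calls on monosomes and light polysomes ended (limma, adjusted p = 0.0518 and 0.0536). Tgm2 is also expressed by macrophages and stromal cells, whose markers were higher in DDC as given above; their part in this result was not tested.

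Tgm2 lies on chromosome 2, 158116402 to 158146436 on the minus strand of GRCm38, and nearly all of its FPKM was in the 3596-base transcript Tgm2-201, which encodes 686 codons. Of 8 other transglutaminase genes only 2 passed the filter. F13b, the carrier subunit of coagulation factor XIII and not an enzyme, had 43.7 and 37.5 FPKM in DDC cytoplasm and 80.4 and 80.0 FPKM in chow cytoplasm, and was lower in DDC in all 4 pools (cytoplasm -0.97 ± 0.20; limma, adjusted p = 0.00515). Tgm1, the transglutaminase of keratinocytes, had 5.36 and 5.45 FPKM in DDC cytoplasm and 8.79 and 1.7 FPKM in chow cytoplasm and was not called in any pool.

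The level of Sqstm1 was higher in DDC in each of the 4 pools, by less than 2-fold, and the difference did not pass the threshold in any of them. Sqstm1 had 310.4 and 216.1 FPKM in DDC cytoplasm and 155.6 and 125.0 FPKM in chow cytoplasm. On monosomes it had 242.0 and 320.3 FPKM in DDC and 159.2 and 195.5 FPKM in chow, and on light polysomes 204.1 and 343.8 FPKM in DDC and 190.4 and 158.2 FPKM in chow. In these 3 pools every DDC library was above every chow library. How many of all genes separate the diets this way was not counted, so the separation by itself carries little weight. On heavy polysomes the diets overlapped, with 500.2 and 713.2 FPKM in DDC and 502.5 and 390.2 FPKM in chow. The differences were 0.89 (95% interval 0.21 to 1.57), 0.66, 0.61 and 0.43 in cytoplasm, monosomes, light and heavy polysomes (limma, adjusted p = 0.0607, 0.118, 0.162 and 0.35). The call depended on the fit. With each library scaled to the same total, Sqstm1 passed in all 4 pools (1.10, 0.96, 0.94 and 0.93, limma adjusted p = 0.0149, 0.0217, 0.0291 and 0.037). With the replicate number as a block it passed in cytoplasm and on monosomes (limma, adjusted p = 0.0141 and 0.0397). The block takes differences between preparations out of the spread. The diets were compared between preparations, so p-values for diet with the block can be too small. Quantile normalization made Sqstm1 pass in cytoplasm, on monosomes and on light polysomes (1.24, 0.84 and 1.00, limma adjusted p = 0.00931, 0.0443 and 0.0257). Without either DDC light polysome library it passed in cytoplasm (limma, adjusted p = 0.04 and 0.0401).

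Of the Sqstm1 transcripts, Sqstm1-201 and Sqstm1-202 were called higher in DDC on monosomes, where the summed level was not called. Sqstm1 lies on chromosome 11, 50199366 to 50210827 on the minus strand of GRCm38, and has 7 annotated transcripts. Sqstm1-202 is the full-length form, with 2037 bases, 8 exons and 442 codons. Sqstm1-201, also with 8 exons, has 2673 bases and 404 codons. Sqstm1-204 (953 bases in 3 exons, 109 codons) has an annotated start that is incomplete, and all 953 of its bases lie in the last exons of Sqstm1-202, so reads from the 3′ part of the gene fit both. Sqstm1-203 (582 bases) is a noncoding form with part of an intron retained, and 87 of its bases are outside the exons of Sqstm1-202. The authors' software divided the reads among these forms.

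The full-length transcript Sqstm1-202 had 66.8 and 102.4 FPKM on DDC monosomes and 18.2 and 6.16 FPKM on chow monosomes. That was a difference of 2.84 ± 0.53 (limma over all transcripts, adjusted p = 0.00385), or 27.6 and 32.0 percent of the gene's FPKM in DDC and 11.4 and 3.15 percent in chow. On light polysomes it had 72.9 and 132.9 FPKM in DDC and 38.9 and 31.6 FPKM in chow (1.46; limma, adjusted p = 0.0917, and 0.0119 with the replicate block). The libraries of the diets did not overlap on either of these fractions. In cytoplasm it had 150.0 and 154.2 FPKM in DDC and 116.8 and 86.3 FPKM in chow, and on heavy polysomes 127.1 and 344.9 FPKM in DDC and 172.0 and 145.7 FPKM in chow; neither difference passed (0.59 and 0.40; limma, adjusted p = 0.613 and 0.705). The monosome call was kept when any single library, or the 4 chow libraries of preparation 1, was left out. It ended with only the DDC and chow monosome libraries in the fit (limma, adjusted p = 0.136), where 0 of all 21390 transcripts tested were called. Sqstm1-201 had 8.62 and 7.99 FPKM on DDC monosomes and 3.27 and 3.27 FPKM on chow monosomes (1.12 ± 0.28; limma, adjusted p = 0.0156), and was not called in the other pools. Its call ended without the second chow or the first DDC monosome library (limma, adjusted p = 0.0623 and 0.062), with chow preparation 1 left out (0.0659) and with only the monosome libraries in the fit (0.105).

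The short form Sqstm1-204 was not called between the diets in any pool, whereas its share of the gene varied with diet and pool. It had 131.1 and 176.7 FPKM on DDC monosomes and 137.6 and 174.6 FPKM on chow monosomes, a difference of -0.03 with a 95% interval of -1.33 to 1.28. Its share of the gene's FPKM on monosomes was 54.2 and 55.2 percent in DDC and 86.4 and 89.3 percent in chow, and on light polysomes 46.4 and 38.8 percent in DDC and 74.9 and 75.2 percent in chow. In cytoplasm it made up 31.4 and 8.09 percent in DDC and 16.7 and 23.2 percent in chow, so in cytoplasm the diets overlapped; without the second DDC cytoplasm library Sqstm1-204 passed there (1.79; limma, adjusted p = 0.0271). The intron-retaining Sqstm1-203 had 49.6 and 23.4 FPKM in DDC cytoplasm and was listed at 0.404 and 0 FPKM in chow cytoplasm. Its values on heavy polysomes were 56.6 and 118.2 FPKM in DDC and 10.7 and 0 FPKM in chow. It was called in both pools (limma, adjusted p = 0.0268 and 0.0259), and either call ended at a pseudocount of 0.1 (limma, adjusted p = 0.0765 and 0.0888). The cytoplasm call also ended without the second chow library, the first DDC library or the second DDC library of that pool (limma, adjusted p = 0.153, 0.166 and 0.0838). On heavy polysomes the call ended without the same 3 libraries of that pool (limma, adjusted p = 0.164, 0.0537 and 0.13). On monosomes Sqstm1-203 had 35.4 and 33.2 FPKM in DDC and was listed at 0 and 11.5 FPKM in chow, and was not called (3.32; limma, adjusted p = 0.0699, and 0.0309 at equal totals and 0.0482 with quantile normalization). On light polysomes its chow values were both listed as 0, and no test was made.

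Because short transcripts weigh as much as long ones when FPKM is summed, the gene's level was also taken with each transcript weighted by its length, a step added after the values had been seen. Sqstm1 then had 304.8 and 417.7 (FPKM times length in kilobases, summed) on DDC monosomes and 177.0 and 194.4 on chow monosomes, a difference of 0.94 that passed the threshold (limma, adjusted p = 0.0321). In cytoplasm, on light and on heavy polysomes the differences were 0.67, 0.72 and 0.37 and did not pass (limma, adjusted p = 0.152, 0.101 and 0.427).

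**Figure D3:**
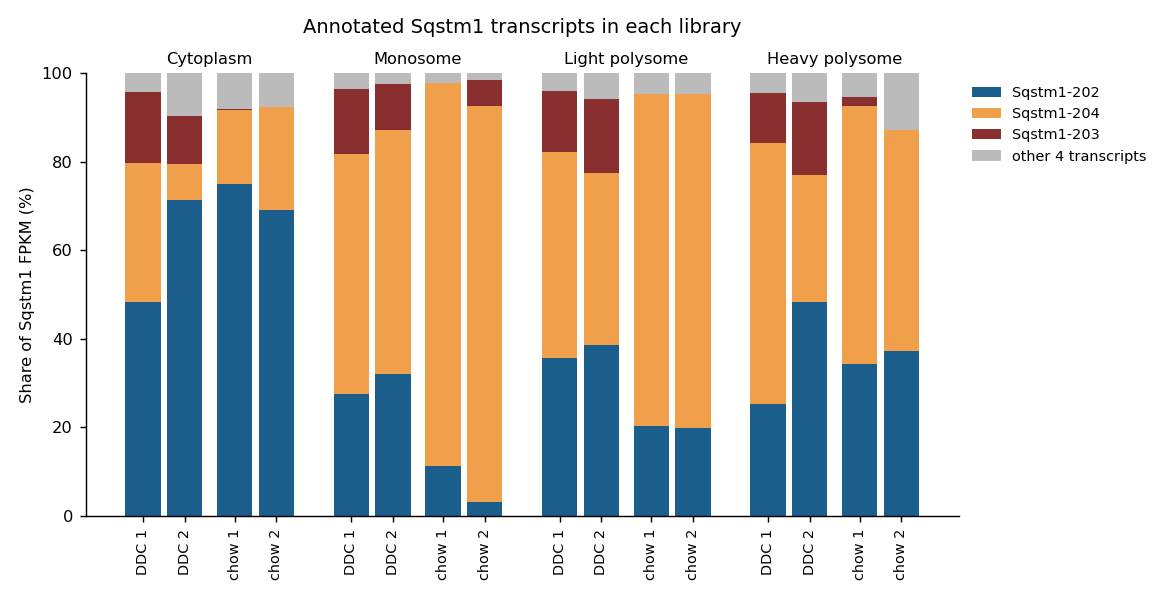
Share of Sqstm1 FPKM (percent) in the full-length Sqstm1-202, the short Sqstm1-204, the intron-retaining Sqstm1-203 and the other transcripts in each library, grouped by RNA pool with DDC left of chow. Sqstm1-204 takes 86.4 and 89.3 percent on chow monosomes and 54.2 and 55.2 percent on DDC monosomes.

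Hspb1 and Krt23 were not called between the diets in any pool. Hspb1 had 10.3 and 5.58 FPKM in DDC cytoplasm and 20.8 and 6.77 FPKM in chow cytoplasm. On heavy polysomes it had 15.4 and 44.3 FPKM in DDC and 59.2 and 80.5 FPKM in chow, and there the diets did not overlap. The heavy difference was -1.36 with a 95% interval of -2.82 to 0.09 (limma, adjusted p = 0.162). On monosomes Hspb1 had 7.46 and 10.6 FPKM in DDC and 4.72 and 7.53 FPKM in chow, and on light polysomes 2.95 and 13.7 FPKM in DDC and 12.96 and 6.95 FPKM in chow, with overlap in both. The cytoplasm difference was -0.59 with a 95% interval of -2.05 to 0.86.

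Krt23, a type I keratin known as stress-inducible in mouse liver, was near the detection limit. It had 3.1 and 1.76 FPKM in DDC cytoplasm and 0.995 and 0.993 FPKM in chow cytoplasm, so the diets did not overlap there. On monosomes it had 0.393 and 1.76 FPKM in DDC and 1.17 and 0.0339 FPKM in chow. On light polysomes it had 0.203 and 3.13 FPKM in DDC and 0.914 and 1.01 FPKM in chow, and on heavy polysomes 0.609 and 2.89 FPKM in DDC and 2.37 and 1.57 FPKM in chow. The cytoplasm difference was 0.75 with a 95% interval of -0.51 to 2.02 (limma, adjusted p = 0.393), and the signs in the gradient fractions changed with the scaling or the pseudocount. Krt23 (chromosome 11, 99477974 to 99493137, minus strand) has 1 annotated transcript, of 1565 bases in 8 exons.

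Hspb1 lies on chromosome 5, 135887919 to 135889563 on the plus strand of GRCm38. Its upstream sequence is shown beside that of Sqstm1 because, unlike the 2 keratin windows, both held matches to the motifs searched. Capitals mark the matches. The Hspb1 window is chr5:135887669-135887918 on the plus strand and the Sqstm1 window chr11:50210828-50211070 on the minus strand, both from RefSeq (GRCm38.p6) and read toward the gene.

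Hspb1 upstream: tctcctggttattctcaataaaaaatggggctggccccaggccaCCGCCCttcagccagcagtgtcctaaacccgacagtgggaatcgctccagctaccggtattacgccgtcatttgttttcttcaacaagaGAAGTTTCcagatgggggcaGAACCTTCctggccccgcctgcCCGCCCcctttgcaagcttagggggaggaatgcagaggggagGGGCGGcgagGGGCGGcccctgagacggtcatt
Sqstm1 upstream: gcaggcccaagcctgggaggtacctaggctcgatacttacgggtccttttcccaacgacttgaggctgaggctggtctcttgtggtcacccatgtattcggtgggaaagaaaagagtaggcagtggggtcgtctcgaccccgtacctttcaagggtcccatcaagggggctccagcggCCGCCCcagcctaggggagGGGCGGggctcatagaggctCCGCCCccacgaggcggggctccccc

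Hspb1 held 2 matches to the heat shock element, ending 110 and 90 bases before the start, and 4 to the GC box. Sqstm1 held 3 GC boxes and no match to the other 4 motifs. The Krt23 window held none of the 5, and Tgm2 was not among the entries used here. A processed pseudogene, Hsp25-ps1, shares 52.3 percent of the 31-base words of the Hspb1 transcript and was listed at no more than 0.601 FPKM in any library.

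Counted together, 3 of the 6 genes (Krt8, Krt18 and Tgm2) were called higher in DDC in each pool, against 12.7 percent of all genes tested in cytoplasm, 21 percent on monosomes, 16.6 percent on light polysomes and 13.9 percent on heavy polysomes. Called lower were 0 of the 6, against 9.67, 16, 13.5 and 10.9 percent of all genes in the same order, and the lowest unadjusted p of a negative difference was 0.0636 (Hspb1 on heavy polysomes, by limma). The median difference of the 6 was 2.11, 1.47, 1.52 and 1.32 in the same order, against 0.01, 0.04, 0.01 and 0.02 for all genes tested. At equal FPKM totals per library, the all-gene median became 0.18, 0.25, 0.24 and 0.29. Of all called genes, 71.5, 71.6, 72.9 and 81.6 percent were then higher in DDC, against 56.8, 56.9, 55.2 and 56.2 percent as deposited. Krt8, Krt18 and Tgm2 were called higher in all 4 pools under either scaling. By transcript, background shares called higher were 5.51, 13, 8.15 and 7.91 percent, and Krt8-201, Krt18-201 and Tgm2-201 were called higher in all 4 pools.

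**Figure D4:**
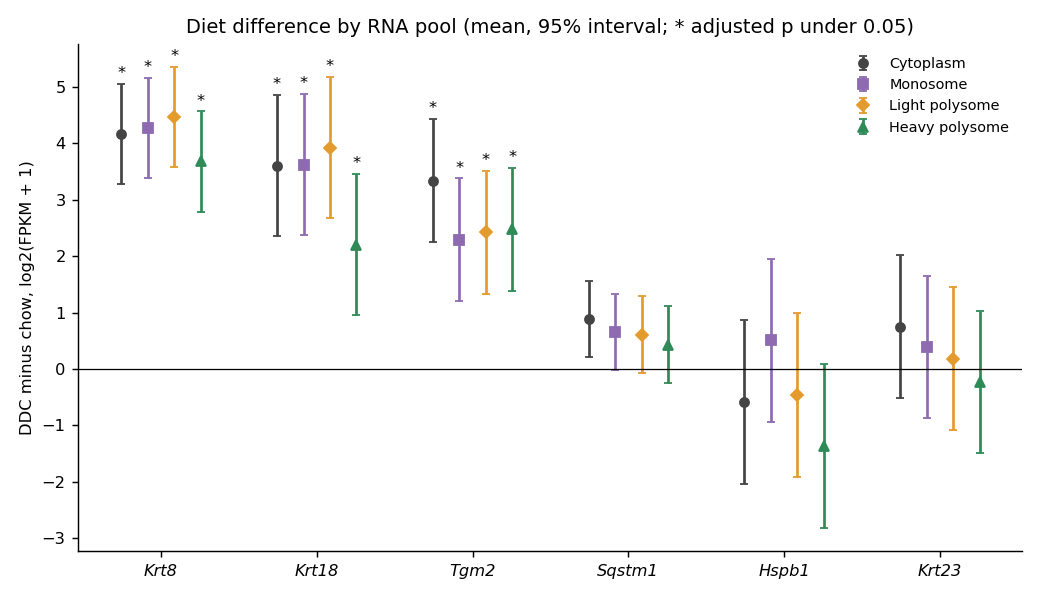
Difference between DDC and chow (log2(FPKM + 1), DDC minus chow) for the 6 genes in each RNA pool, with 95% intervals from limma; asterisks mark an adjusted p under 0.05. Krt8, Krt18 and Tgm2 lie between 2.21 and 4.46, and the intervals of Hspb1 and Krt23 include 0 in every pool.

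Heavy polysomes against monosomes show how the messages were spread over ribosomes within each diet. Heavy polysomes held more Krt8 than monosomes in both diets, by 1.59 ± 0.41 in DDC and 2.19 ± 0.41 in chow (log2, heavy minus monosome; limma, adjusted p = 0.011 and 0.00105). Hspb1 showed the widest gap in chow, with 59.2 and 80.5 FPKM on heavy polysomes and 4.72 and 7.53 FPKM on monosomes (3.33 ± 0.67, 10-fold; limma, adjusted p = 0.00168). In DDC the Hspb1 gap was 1.46 and was not called (limma, adjusted p = 0.114; 0.0338 with the replicate block). Krt18 differed by -0.02 in DDC and 1.4 in chow, and neither passed (limma, adjusted p = 0.988 and 0.0669; the chow value 0.01 with the replicate block and 0.034 to 0.0394 without any one of the DDC light or heavy libraries). Krt23 differed by 0.35 in DDC and 0.97 in chow (limma, adjusted p = 0.681 and 0.197; the chow value 0.0217 with the replicate block). Tgm2 differed by 0.45 in DDC and 0.27 in chow, was not called, and changed sign at equal FPKM totals (-0.14 and -0.49).

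Sqstm1 was 1.1 higher on heavy polysomes than on monosomes in DDC and 1.32 higher in chow (limma, adjusted p = 0.0181 and 0.00446). These values depend on the scaling, because heavy libraries held larger FPKM totals. Equal totals moved the median of all genes to -0.37 in DDC and -0.37 in chow. Sqstm1 then differed by 0.50 in DDC and 0.53 in chow (limma, adjusted p = 0.205 and 0.171) and Krt8 in DDC by 1 (limma, adjusted p = 0.0698), while Krt8 and Hspb1 stayed called in chow. Of all called genes, 24.0 percent in DDC and 26.0 percent in chow were then higher on heavy polysomes, against 55.6 and 53.0 percent as deposited. As deposited, 2 of the 6 genes were called higher in DDC and 3 of 6 in chow, against 18.2 and 23.7 percent of all genes. The 2 DDC calls ended without the first DDC monosome library (limma, adjusted p = 0.0615 for Krt8 and 0.106 for Sqstm1), without the second DDC heavy library (0.0936 and 0.113) and with chow preparation 1 left out (0.0524 and 0.0691). Leaving out chow preparation 1 also ended the 3 chow calls.

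Whether the diet changed the heavy to monosome spread was tested directly, and 0 of the 6 genes were called, against 2.13 percent of all genes called either way. The widest differences were those of Hspb1 (-1.87, 95% interval -3.93 to 0.19; limma, adjusted p = 0.292) and Krt18 (-1.42, interval -3.19 to 0.35; adjusted p = 0.353). For Krt8 it was -0.6 (interval -1.86 to 0.66). Their unadjusted p-values were 0.0709, 0.107 and 0.322. Heavy polysomes against cytoplasm gave 0 of 6 as well, against 0.102 percent of all genes, with unadjusted p-values between 0.11 and 0.43 (limma). In DDC these pools carried different preparation labels.

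By mean deposited FPKM, DDC heavy polysomes were highest for Krt8, Krt18 and Sqstm1 among the 8 groups. For Krt18 that place rests on 1 library, and the log2 difference from DDC monosomes was -0.02, and -0.62 at equal totals. For Krt8 the next 3 groups were DDC cytoplasm, light polysomes and monosomes, whose libraries overlapped, followed by chow heavy polysomes and then the other chow groups. For Krt18 the 4 DDC groups overlapped with their neighbors in order, and all lay above chow heavy polysomes. For Sqstm1, DDC and chow heavy polysomes came first and overlapped, and all other groups lay below them in deposited FPKM. These orders across pools depend on the scaling and were not taken at equal totals. Summed FPKM was 1386166 and 1364644 on chow heavy polysomes but 448290 and 375145 in DDC cytoplasm. Hspb1 was highest on chow heavy polysomes (mean 69.8 FPKM) and lowest on chow monosomes (mean 6.12 FPKM).

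Among the ubiquitin and aggregate-handling genes, Ubd had the widest difference in cytoplasm. Ubd, which encodes the ubiquitin-like modifier FAT10 found in Mallory-Denk bodies, had 102.5 and 33.7 FPKM in DDC cytoplasm and 0.0463 and 0.175 FPKM in chow cytoplasm (5.75 ± 0.66; limma, adjusted p = 0.000141). It was called higher in all 4 pools. Of the 12 ubiquitin and aggregate-handling genes tested in cytoplasm, Ubd was the only one called higher. Hdac6, a deacetylase that carries aggregates along microtubules, had 4.88 ± 0.936 FPKM in DDC and 2.93 ± 0.195 FPKM in chow (SD, n = 2 each; limma, adjusted p = 0.0605). The median difference of the 12 was 0.24.

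Of the autophagy genes, those called were lower in DDC. Of 14 tested in cytoplasm, 0 were called higher, also at an unadjusted p under 0.05, and 5 lower (Map1lc3a, Gabarapl1, Map1lc3b, Gabarapl2 and Atg5), against 12.7 percent higher and 9.67 percent lower among all genes, with a median of -0.59 against 0.01. Gabarapl1, of the ATG8 family that p62 binds, had 51.0 and 46.3 FPKM in DDC cytoplasm and 169.3 and 186.1 FPKM in chow cytoplasm (-1.85 ± 0.36; limma, adjusted p = 0.00396). Map1lc3b, which encodes LC3B, had 17.3 and 19.2 FPKM in DDC and 33.1 and 39.5 FPKM in chow (-0.95; limma, adjusted p = 0.00477), and Gabarapl2 had 9.67 and 8.51 FPKM in DDC and 17.8 and 21.1 FPKM in chow (-1.01; adjusted p = 0.0188). Of the p62 partners and targets of NRF2, the oxidative stress factor freed when p62 binds KEAP1, 5 of 11 tested were higher and 0 lower, against the same shares of all genes, with a median of 0.79. Srxn1, a sulfiredoxin, had 105.5 and 89.4 FPKM in DDC and 8.82 and 7.8 FPKM in chow (3.4 ± 0.32; limma, adjusted p = 3.69e-05). Hmox1, heme oxygenase, differed by 3.03 and Nqo1, a quinone reductase, by 1.98 (limma, adjusted p = 0.00181 and 0.00352). The other genes called higher were Nfe2l2 and G6pdx.

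Genes of keratin-linking proteins had low levels, and 2 of 9 tested were called higher in cytoplasm, against 12.7 percent of all genes. Ppl, which encodes periplakin, a plakin that binds keratin 8, had 7.13 and 8.21 FPKM in DDC and 1.32 and 0.386 FPKM in chow (2.27 ± 0.26; limma, adjusted p = 0.000127). Plec, which encodes the linker plectin, had 3.1 and 1.76 FPKM in DDC and 0.516 and 0.68 FPKM in chow (1.08; adjusted p = 0.00959). Dsg2, a desmosomal cadherin, had 14.0 and 12.8 FPKM in DDC cytoplasm and 9.11 and 8.0 FPKM in chow cytoplasm and was not called there. On light polysomes it had 5.49 and 6.84 FPKM in DDC, was listed at 0 in either chow library, and was called higher (limma, adjusted p = 5.29e-05). The other chow libraries held 5.32 to 9.11 FPKM of Dsg2. The software can list a failed estimate at 0, and whether these zeros are such was not tested. Dsg2 stayed below the 100 FPKM at which such zeros were left out of the tests. On heavy polysomes, with 1.42 and 3.47 FPKM in DDC and 5.32 and 7.73 FPKM in chow, Dsg2 was called lower (-1.18, adjusted p = 0.0118 by limma). Of 14 other heat shock and stress chaperones, 0 were called in cytoplasm, where 1 was lower and 0 were higher at an unadjusted p under 0.05 and Hsph1 came closest (11.7 ± 1.09 FPKM in DDC and 28.4 ± 9.43 FPKM in chow, SD, n = 2 each; limma, adjusted p = 0.0659). On heavy polysomes 1 of the 14 was called higher (Cryab, a small heat shock protein) and 2 lower (Dnaja1 and Hsph1). Of all genes tested there, 13.9 percent were called higher and 10.9 percent lower. Cryab was also called higher on monosomes, and Dnaja1 and Hsph1 lower on monosomes and light polysomes. The median of the 14 was 0.04 in cytoplasm.

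Across the 16 libraries, the genes whose log2 level ran most like that of each member were picked among genes averaging 10 FPKM or more in some group. Krt8 and Krt18 ran together with a Pearson r of 0.957, Krt8 and Tgm2 with 0.906, Krt18 and Tgm2 with 0.919, and Krt8 and Hspb1 with 0.144. Nearest to Krt8 were Mov10, Slc39a4 and Elf3 (r = 0.981, 0.981 and 0.977), an RNA helicase, a zinc importer and an epithelial ETS factor. Slc39a4, Foxp4 and Elf3 were nearest to Krt18 (0.965, 0.957 and 0.953), and Spp1, Slc1a4 and Cd9 to Tgm2 (0.968, 0.966 and 0.96). Eno1 and Ddx24 were near to Sqstm1 (0.977 and 0.956), Mtif3, Plrg1 and Timd2 to Hspb1 (0.939, 0.911 and 0.906), and Raet1d, Laptm4b and Fgg to Krt23 (0.852, 0.84 and 0.835). The 16 points share diets, fractions and preparations, so these values describe the libraries and carry no p.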

How the data were processed

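The authors deposited FPKM for each transcript in each library. Per the submitters' processing notes, the tools were Cuffnorm, STAR 2.4.2a, Trimmomatic, Picard 1.119 and bcl2fastq 2.17.1.14 on GRCm38 (mm10), and per the labels' protocols the libraries were stranded and polyadenylated. Read numbers were not recovered from these values, so no counting intervals are given. Genes were assigned through GENCODE M21 (116728 of 117592 matched, 99.27 percent) and summed to 48158 genes. Genes and transcripts that reached 1 FPKM in 2 or more libraries entered as log2(FPKM + 1), and 8 group means were fitted over 16 libraries with limma 3.58.1 in R 4.3.3 (variance trend, 8 residual degrees of freedom), with Benjamini-Hochberg adjustment over all features and a threshold of 0.05. The fit was tested on simulated data with independent libraries, which leaves out the preparations that the real libraries share. Cuffnorm can list a failed estimate at 0. A gene at 0 in both libraries of a group but at 100 FPKM or more elsewhere was therefore not tested in comparisons with that group (49 genes). Fold changes on this scale understate low genes. The 6 genes, the lists and the zero rule were chosen with earlier results of these data known.

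Named beside the 6 were, per list, the 3 tested genes with the lowest p in cytoplasm, and the 3 genes most like each member, of which some results are not reported here; other names were chosen after their values were seen. The alternatives were another pseudocount, filters, scalings, variance models, sets of libraries, transcripts and a replicate block. Replicate numbers pair fractions of a preparation within a diet: the replicate difference correlated across genes at 0.357 to 0.749 within chow and 0.305 to 0.365 between the DDC fractions, at -0.05 to 0.161 between DDC cytoplasm and fractions, and at -0.094 to 0.07 between the diets. The block covers the libraries that share a preparation, without DDC cytoplasm. It takes differences between preparations out of the spread, and its p-values for DDC against chow can therefore be too small.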

Additional observations from a re-analysis of the deposited data

How the results depend on the processing

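The diet calls of Krt8 held under every alternative in all 4 pools, and those of Krt18 and Tgm2 kept their sign in every one. Calls moved with the scaling, the libraries in the fit, the replicate block, the pseudocount, the filter and the weighting of transcripts, and the causes were not tested. With no filter, both Sqstm1-203 calls ended (limma, adjusted p = 0.0603 in cytoplasm and 0.0998 on heavy polysomes). With only the compared groups in the fit, 1 of the 6 genes was called between the diets on heavy polysomes and 0 between heavy polysomes and monosomes in DDC. Of the transcripts of the 6 genes, 0, 1 and 0 were called on monosomes, light and heavy polysomes. Over the whole table this fit called 0 of 21390 transcripts on monosomes and 0 of 21400 on heavy polysomes, so those zeros are not particular to the 6 genes. Tgm2 was among the calls this fit ended (limma, adjusted p = 0.0578 on monosomes and 0.0813 on heavy polysomes). Equal totals and quantile normalization each left 0 genes called between heavy polysomes and monosomes in DDC. Without preparation 1 of chow that count was 0 in DDC and 0 in chow, and the transcripts called between the diets numbered 1, 2, 1 and 1 from cytoplasm to heavy polysomes. With no filter, 2 transcripts were called on heavy polysomes. With the replicate block, 5 genes were called between heavy polysomes and monosomes in chow; beyond this and the values given beside the results, the block changed no call of the 6 genes. It moved the genes called over the whole table for the diet difference of heavy minus monosome to 414 higher and 505 lower, against 135 and 115.

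Uncalled values changed sign as follows. Hspb1 in cytoplasm was 0.15 without preparation 1 of chow. Krt23 was -0.007 on monosomes and -0.036 on light polysomes with quantile normalization, -0.104 on light polysomes at a pseudocount of 0.1, and 0.116 on heavy polysomes at equal totals. Tgm2 between heavy polysomes and monosomes was -0.137 in DDC and -0.488 in chow at equal totals, -0.206 and -0.102 with quantile normalization, and -0.042 in chow without its preparation 1. Sqstm1-204 was 0.277 on monosomes and 0.115 on light polysomes at equal totals, and 0.193 and 0.109 with quantile normalization.

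Leaving out 1 library at a time gave these ranges for values whose sign it changed, or for counts it moved. Hspb1 ran from -1.335 to 0.15 in cytoplasm and from -1.414 to 0.482 on light polysomes. Krt23 ran from -0.147 to 0.923, -0.707 to 1.072 and -0.871 to 0.403 on monosomes, light and heavy polysomes, and from -0.284 to 0.989 between heavy polysomes and monosomes in DDC. For heavy polysomes minus monosomes, Krt18 ran from -0.862 to 0.818 in DDC and Tgm2 from -0.29 to 1.198 in DDC and -0.104 to 0.636 in chow. Sqstm1-204 ran from -0.622 to 1.794, -0.24 to 0.188, -0.456 to 0.033 and -0.258 to 0.334 from cytoplasm to heavy polysomes, and Sqstm1-202 from -0.31 to 1.12 on heavy polysomes. Members called numbered 3 to 4 in cytoplasm and 2 to 3 on heavy polysomes between the diets, and 0 to 2 in DDC and 3 to 4 in chow between heavy polysomes and monosomes. Transcripts called between the diets numbered 3 to 4 in cytoplasm, 3 to 6 on monosomes, 2 to 4 on light polysomes and 1 to 4 on heavy polysomes. A lone library left in a group was assumed to vary like those of the other groups.

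Counts over all genes moved more. With only the compared groups, 4245, 1757 and 354 genes were called between the diets in cytoplasm, on monosomes and on heavy polysomes, against 2629, 4351 and 2911, and 594 in DDC and 2711 in chow between heavy polysomes and monosomes, against 3848 and 5258. Without preparation 1 of chow, 952, 1822 and 1790 were called in cytoplasm, on light and on heavy polysomes, against 2629, 3539 and 2911, and 3047 between chow heavy polysomes and monosomes. The diet difference of heavy minus monosome, 250 genes, gave 1 with only the compared groups, 106 without that preparation, 409 with protein-coding transcripts and 36 to 409 without single libraries. That of heavy minus cytoplasm, 12 genes, gave 1 to 80 over the alternatives.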
